A study of Sus scrofa with 9 samples.

Results

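Fatty acid synthesis builds palmitate in the cytosol from acetyl-CoA, and elongases and desaturases then turn it into longer and less saturated fatty acids. The same desaturases and elongases process the polyunsaturated fatty acids that an animal takes up from its diet. In other tissues these genes are known targets of SREBP-1c and of the liver X receptors. In the arterial wall the pathway has been studied in macrophages, which store lipid, as well as in smooth muscle cells and adventitial fat. The description below covers 10 genes of this pathway: FASN, ACACA, ACLY, ACSS2, ME1, ELOVL5, ELOVL6, SCD, FADS1 and FADS2. They were chosen by symbol from a table of 21357 genes, and each of the 10 symbols had exactly 1 entry.

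RNA was sequenced from male Tibetan minipigs, from vessel taken where the abdominal aorta ends. NC pigs ate a regular diet for 24 weeks, and H24 pigs, labelled as the atherosclerosis group, ate a high-fat, high-cholesterol diet for 24 weeks. H8 pigs, labelled as hypercholesterolemia, were on a high-fat diet for 8 weeks. The NC and H24 pigs were bought when a few months old, and no age is given for H8. Each of the 3 groups has 3 libraries, numbered 1 to 3. No regular-diet group of 8 weeks was analysed here, so in H8 against NC the diet and the time on study cannot be told apart. In H24 against H8 the weeks on diet and the time on study differ together, so these cannot be told apart either. The diets of H8 and H24 are also described in different words. The vessel was sequenced as a whole, so a lower level can come from fewer cells of a type or from less RNA per cell, which cannot be told apart.

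Total counts ran from 44094263 to 75787978 per library, and the lowest belonged to H24 library 2. All 10 genes lay well above the level of 3 counts, which was 0.0396 to 0.068 CPM (counts scaled to library size). Libraries of the same group correlated at 0.958 to 0.963 in NC, 0.932 to 0.962 in H8 and 0.829 to 0.938 in H24. Library 3 stood apart in H24. Its summed level of 8 smooth muscle markers was 1770 FPKM against 8280 and 12100 in H24 libraries 1 and 2, and its summed level of 10 macrophage markers was 1960 FPKM against 302 and 179. The labelled tissue was checked by these markers: the smooth muscle sum was 10200 to 14100 FPKM over all NC and H8 libraries. The extraction notes speak of an adipose type. ADIPOQ, the adipocyte hormone adiponectin, read 4.44, 14.6 and 6.83 FPKM in NC, 0.0954, 0.106 and 0.0789 FPKM in H8, and 7.24, 0.0705 and 0.416 FPKM in H24.

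Of the 10 genes, SCD was higher and FADS1 lower in H24 than in NC, and the other 8 did not pass the test. SCD encodes stearoyl-CoA desaturase, which makes oleate and palmitoleate, the main monounsaturated fatty acids. FADS1 encodes the desaturase that acts late in the chain from linoleate to arachidonate. SCD was 9.02-fold higher and FADS1 was 5.52-fold lower on the fitted scale. A gene was called when its unadjusted p in edgeR's quasi-likelihood test was under 0.05 and its log2 fold change was beyond 1 in size, which are the thresholds of the study. Of 14828 genes tested in H24 against NC, 1.52% were called lower and 9.95% higher, and 1 of the 10 members was called in each direction. No member passed a Benjamini-Hochberg adjusted p of 0.05 over all genes tested, and the share of all genes that did was 0%, while 2055 genes (13.9%), 2 of them members, had an unadjusted p under 0.05. With DESeq2 both SCD (adjusted p = 0.0027) and FADS1 (adjusted p = 0.000521) passed in this comparison, where 7.05% of 13527 genes with an adjusted p did so with a log2 fold change beyond 1.

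**Figure D1:**
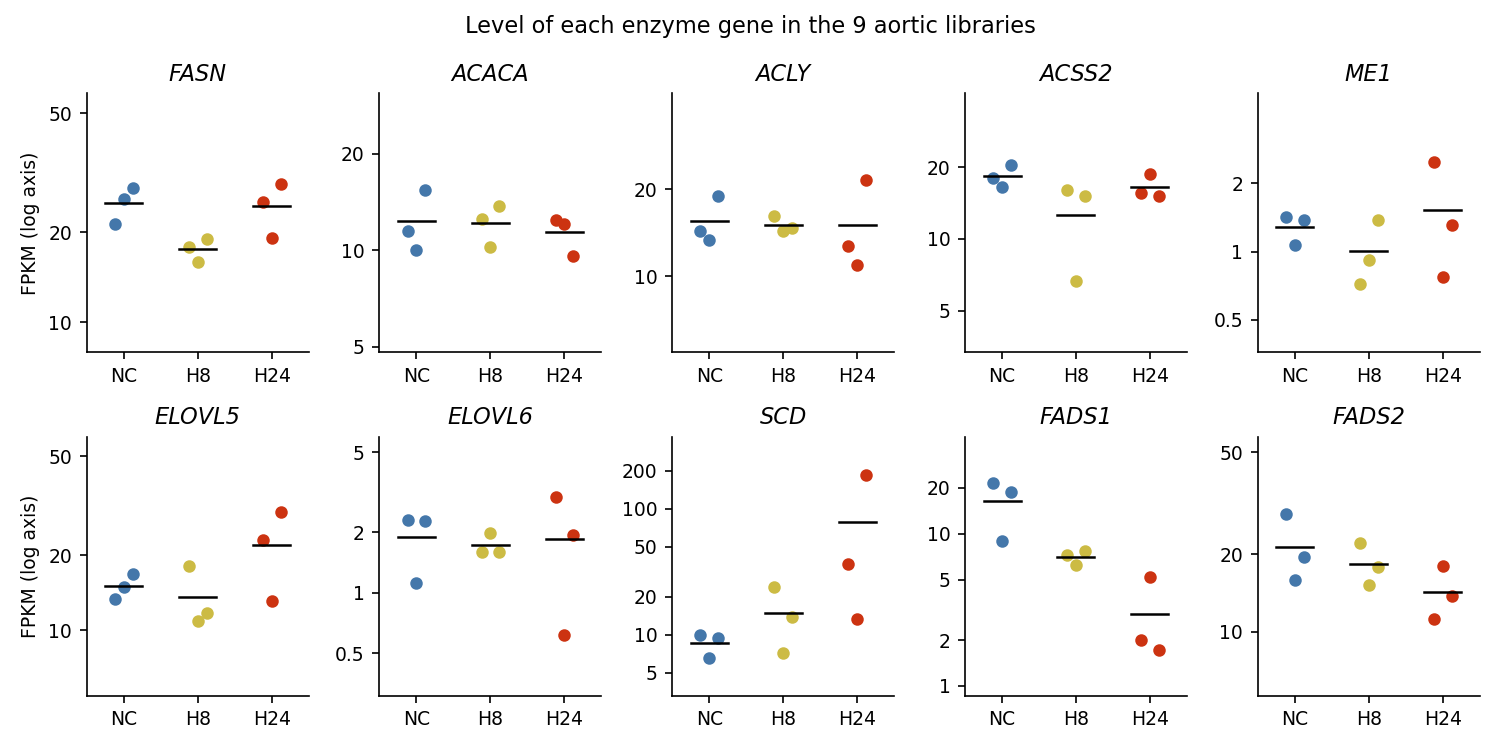
Level of each of the 10 genes in FPKM on a log axis, 1 point per library and a bar at the mean of the 3 libraries of NC, H8 and H24. SCD spreads upward from 13.4 to 185 FPKM in H24, FADS1 steps down from NC through H8 to H24, and the points of most other genes overlap between groups.

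SCD lies on chromosome 14 at 111461157 to 111478031, plus strand, in the pig build Sscrofa11.1, to which all positions here refer. It read 9.89, 6.57 and 9.34 FPKM in NC libraries 1 to 3. In H8 it read 23.9, 7.20 and 13.9 FPKM, and in H24 it read 36.2, 13.4 and 185 FPKM. Every H24 library was above every NC library, and H8 overlapped both groups. The log2 fold change in H24 against NC was 3.17 ± 0.92 (SE), with a 95% interval from 1.01 to 5.34 (adjusted p = 0.207). H24 library 3 carried much of that size: without it the log2 fold change of SCD was 1.49, still called. The highest H24 library was 13.8 times the lowest, against 3.32 times in H8 and 1.5 times in NC.

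For H8 against NC the log2 fold change of SCD was 0.92 ± 0.38 (adjusted p = 0.32), short of the fold required for a call. Without H8 library 2, the one within the NC range, it was 1.21 and called, and without H8 library 1 it was 0.41 and not called. In H24 against H8 it was 2.20 ± 0.93, with an interval from 0.01 to 4.38 (adjusted p = 0.362). That call did not hold without H24 library 3, where the log2 fold change was 0.55, nor without H8 library 1 (2.69), 2 (1.89) or 3 (2.11), where the fold stayed large and the unadjusted p was above the threshold.

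The mean level of SCD stood at the percentile 73.3 of all genes above 0 in NC, at 84.7 in H8 and at 97.2 in H24. By mean level it ranked 8 among the 10 genes in NC and 1 in H24. In H24 library 2, however, SCD at 13.4 FPKM was below FASN at 19.1, ACSS2 at 18.8 and FADS2 at 18.0 FPKM. SCD made up 6.94%, 5.74% and 6.18% of the summed FPKM of the 10 genes in NC, 17.5%, 8.03% and 11.9% in H8, and 25.2%, 12% and 59.9% in H24. Without SCD the summed level of the other members was 133, 108 and 142 FPKM in NC, 112, 82.5 and 103 in H8, and 108, 98.5 and 124 in H24, so the groups overlapped.

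The macrophage marker sum moved with SCD. It was 33.7, 24.3 and 28.3 FPKM in NC, 188, 32.0 and 89.3 in H8 and 302, 179 and 1960 in H24. Within NC, within H8 and within H24 the libraries stood in the same order for SCD and for this sum. All 10 macrophage markers were called higher in H24 against NC (8 of 9 without H24 library 3), and 6 of 9 tested in H8 against NC. In H24 against H8 9 of 10 were called higher. That count fell to 0 of 10 without H8 library 2, 1 of 10 without H8 library 3 and 0 of 9 without H24 library 3. Of all genes 9.95%, 5.11% and 7.22% were called higher in these comparisons, in the same order. The part of macrophage content in the level of SCD was not tested. H24 library 2 and H8 library 1, with marker sums of 179 and 188 FPKM, held 13.4 and 23.9 FPKM of SCD.

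**Figure D2:**
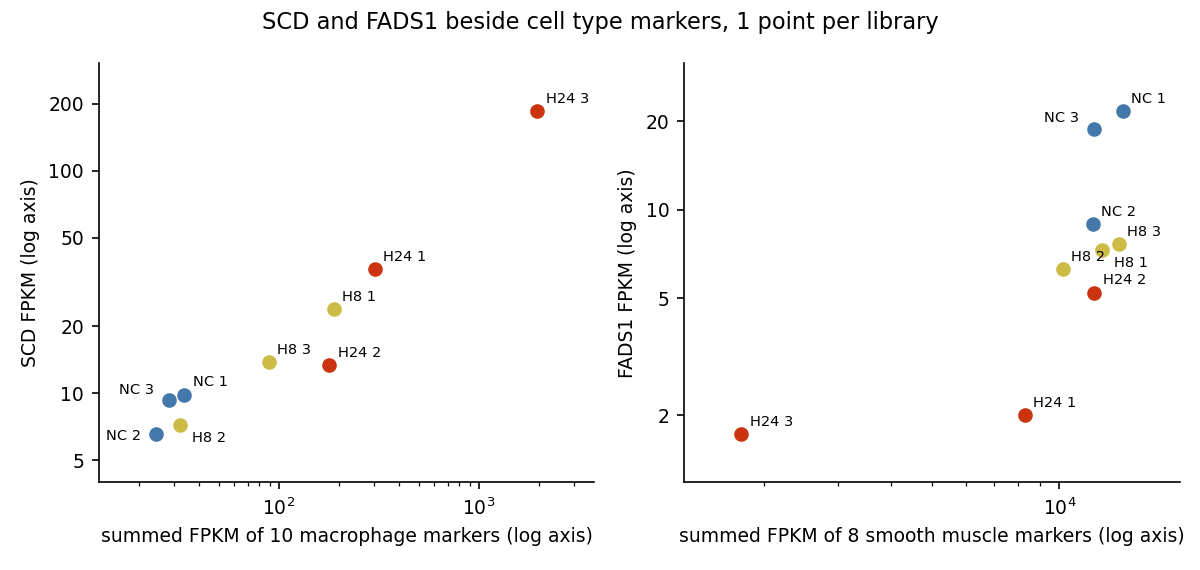
Left, SCD level against the summed level of 10 macrophage markers, and right, FADS1 level against the summed level of 8 smooth muscle markers, both in FPKM on log axes with 1 point per library. SCD and the macrophage sum are both highest in H24 library 3, while the 3 H8 libraries have smooth muscle sums of 10200 to 13800 FPKM, near those of NC, with less FADS1.

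FADS1 lies on chromosome 2 at 9735273 to 9750506, plus strand. It read 21.6, 8.94 and 18.9 FPKM in NC libraries 1 to 3. In H8 it read 7.29, 6.28 and 7.65 FPKM, and in H24 it read 1.998, 5.22 and 1.73 FPKM. The groups did not overlap in any of the 3 comparisons: the lowest NC library was above the highest H8 library, and the lowest H8 library was above the highest H24 library. The log2 fold change was -2.46 ± 0.54 in H24 against NC, with an interval from -3.74 to -1.19 (adjusted p = 0.132). Leaving out any 1 library kept it between -3.18, without H24 library 2, and -2.19.

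FADS1 had a log2 fold change in H8 against NC of -1.08 ± 0.29, with an interval from -1.77 to -0.39 (adjusted p = 0.209). That value sits near the fold required for a call, and it was -0.85 without NC library 1 and -0.97 without NC library 3, both with an unadjusted p under the threshold. In H24 against H8 it was -1.39 ± 0.47, with an interval from -2.50 to -0.29 (adjusted p = 0.341), and -1.16 without H24 library 1, where it was not called. The 3 comparisons share libraries in pairs, so they are not separate evidence. The mean level of FADS1 stood at the percentile 84.9 of genes above 0 in NC, 70.9 in H8 and 50.3 in H24.

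Beside FADS1, the smooth muscle marker sum was 14100, 12000 and 12100 FPKM in NC, 12600, 10200 and 13800 in H8 and 8280, 12100 and 1770 in H24. The lowest FADS1 level and the lowest smooth muscle sum were both in H24 library 3. In H24 library 2 the smooth muscle sum was within the NC range and FADS1, at 5.22 FPKM, was below every NC and H8 library. The single markers were mixed there. In FPKM 4 of the 8, MYH11, MYLK, SMTN and LMOD1, lay below NC in every H24 library, where 7.8% of all genes did. TAGLN (3177 FPKM) and DES (576 FPKM) in H24 library 2 were above every NC library. By edgeR 0 of the 8 smooth muscle markers were called in any comparison, but in H24 against NC all 8 had log2 fold changes below 0, with a median of -0.88. In that comparison 1 of the 8 was called lower with DESeq2, with limma and in a fit of all 9 libraries. Adipocyte markers also differed: 5 of 10 tested were called lower in H8 against NC, where 2.27% of all genes were. Of 11 tested in H24 against NC 1 was called lower and 2 higher, beside 1.52% and 9.95% of all genes. In that comparison 8 of the 11 had log2 fold changes below 0. The number called lower in H24 against NC was 4 without H24 library 1, 0 without NC library 2 or 3, and 5 with limma at a pseudocount of 0.1. The summed level of 12 adipocyte markers was 139 to 248 FPKM in NC, 99.6 to 216 in H8 and 142 to 279 in H24, but FABP4 and CFD, 2 of the 12, made up most of that sum. FABP4 was at 47.9 to 139 FPKM in H8 and CFD at 31.0 to 68.4 FPKM, whereas ADIPOQ was called lower in H8 against NC at a log2 fold change of -6.39 (adjusted p = 0.0206). PLIN1, which coats the fat droplet, was also called lower, with 3.59, 16.5 and 5.91 FPKM in NC and 0.0289, 0.0823 and 0 FPKM in H8. Fibroblast markers, 6 in all, summed to 1410 to 1650 FPKM in NC, 2220 to 3480 in H8 and 1980 to 2010 in H24. Of the 6, 2 were called higher in each comparison with NC, beside 5.11% (H8) and 9.95% (H24) of all genes. The part of these cell types in the level of FADS1 was not tested.

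FADS2 encodes the desaturase that takes the first step on linoleate and alpha-linolenate. It lies on the minus strand of chromosome 2 at 9632454 to 9667044, with 68228 bases between its end and the start of FADS1. FADS2 read 28.7, 15.8 and 19.6 FPKM in NC, 22.2, 15.1 and 17.9 FPKM in H8, and 11.2, 18.0 and 13.8 FPKM in H24. All 3 groups overlapped. The log2 fold change in H24 against NC was -0.59 ± 0.30, with an interval from -1.29 to 0.12 (adjusted p = 0.446). FADS3, the neighbour on the other side of FADS2, read 98.5, 84.9 and 85.5 FPKM in NC, 95.04, 94.8 and 107 FPKM in H8, and 57.5, 122 and 49.4 FPKM in H24, with a log2 fold change of -0.25 in H24 against NC (adjusted p = 0.821).

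The ratio of FADS1 to FADS2 within a library sets aside what scales both genes alike. It was chosen after the values were seen, as was the ratio of SCD to FASN. FADS1 over FADS2 was 0.752, 0.565 and 0.962 in NC, 0.328, 0.415 and 0.426 in H8, and 0.178, 0.291 and 0.126 in H24. The means were 0.76 ± 0.199, 0.39 ± 0.0535 and 0.198 ± 0.0844 (SD, n = 3 each), and no group overlapped another. An exact permutation test, two-sided, gave p = 0.1 in each of the 3 comparisons, which is the smallest it can give with 3 against 3 (0.15 adjusted over the 6 tests of both ratios).

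SCD over FASN was 0.465, 0.254 and 0.332 in NC, 1.34, 0.452 and 0.73 in H8, and 1.44, 0.702 and 6.36 in H24. H24 was above NC in all libraries (exact permutation p = 0.1, the smallest possible), while H8 overlapped NC (exact permutation p = 0.2) and H24 (exact permutation p = 0.3). Adjusted over the same 6 tests these were 0.15, 0.24 and 0.3.

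**Figure D3:**
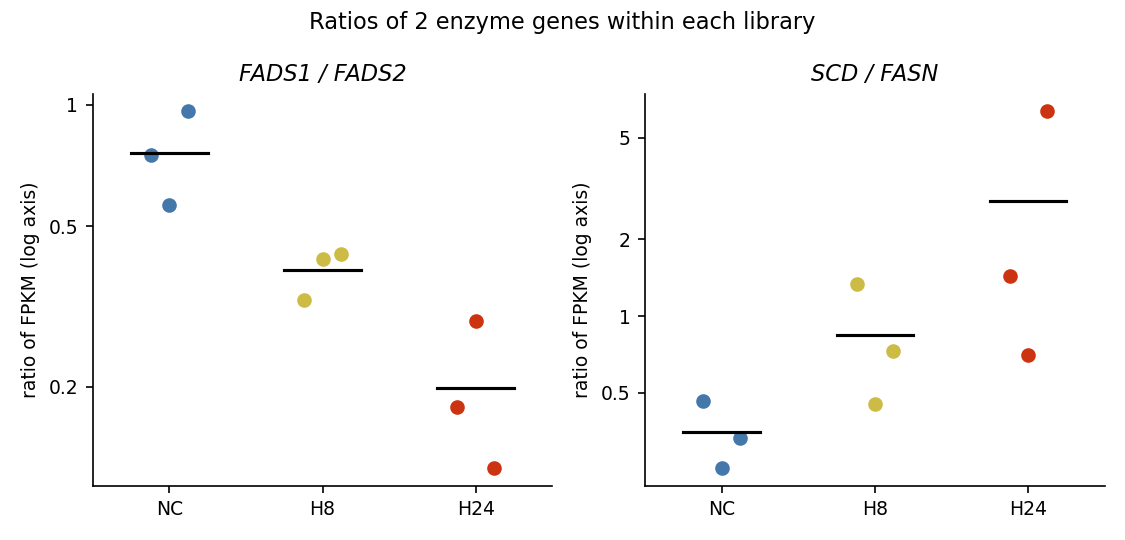
Ratio of FPKM values of 2 genes within each library on a log axis, 1 point per library and a bar at the mean of each group. FADS1 over FADS2 falls in separate ranges in NC, H8 and H24, whereas SCD over FASN overlaps between H8 and both other groups.

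The enzymes that make palmitate itself differed little in H24 against NC. FASN, the multifunctional synthase that assembles palmitate, lies on chromosome 12 at 922418 to 937560, plus strand. It read 21.3, 25.8 and 28.1 FPKM in NC, 17.9, 15.9 and 19.0 FPKM in H8, and 25.2, 19.1 and 29.1 FPKM in H24. In FPKM the H8 libraries were below all libraries of both other groups. On the log2 CPM scale, relative to the NC mean, H24 library 2 (-0.361) fell below H8 library 3 (-0.352), so that FASN overlapped there between H24 and H8. The log2 fold change was -0.06 ± 0.25 in H24 against NC, with an interval from -0.64 to 0.52 (adjusted p = 0.934). It was -0.38 ± 0.16, with an interval from -0.75 to -0.01, in H8 against NC (adjusted p = 0.326). It was 0.29 ± 0.23 in H24 against H8 (adjusted p = 0.581), and none of the 3 was called.

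ACACA encodes the acetyl-CoA carboxylase that supplies malonyl-CoA, the rate-setting step of the pathway. It spans 38581451 to 38875134 on the minus strand of chromosome 12 and read 11.5, 10.0 and 15.5 FPKM in NC, 12.5, 10.3 and 13.8 FPKM in H8, and 12.5, 12.1 and 9.61 FPKM in H24. The groups overlapped, and the log2 fold change in H24 against NC was -0.13, with an interval from -0.69 to 0.43 (adjusted p = 0.85). Of the members it alone overlaps other genes of the table, C17orf78 and a small RNA on the opposite strand, which reached at most 0.0818 FPKM.

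ACLY, ATP citrate lyase, cuts citrate to give cytosolic acetyl-CoA. At 20796741 to 20841298 on the plus strand of chromosome 12, it read 14.4, 13.4 and 19.0 FPKM in NC, 16.1, 14.4 and 14.6 FPKM in H8, and 12.7, 10.9 and 21.5 FPKM in H24. NC lay inside the range of H24, and the log2 fold change was -0.07, with an interval from -0.80 to 0.66 (adjusted p = 0.939). For FASN, ACACA and ACLY alike the intervals in H24 against NC exclude a 2-fold change in either direction.

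ACSS2, which makes acetyl-CoA from acetate, read 18.1, 16.6 and 20.5 FPKM in NC, 16.0, 6.68 and 15.2 FPKM in H8, and 15.6, 18.8 and 15.2 FPKM in H24 (chromosome 17, 38260266 to 38316035, plus strand). The 3 H8 libraries were below NC in FPKM, with library 2 far lower than the others, while on the log2 CPM scale H8 library 1 (-0.0979) was above NC library 2 (-0.1003). The log2 fold change in H8 against NC was -0.43 ± 0.28, with an interval from -1.09 to 0.24 (adjusted p = 0.524), and without H8 library 2 it was -0.17. ME1, the cytosolic malic enzyme that supplies NADPH, was the lowest member in every group. It read 1.42, 1.07 and 1.38 FPKM in NC, 0.721, 0.915 and 1.37 FPKM in H8, and 2.49, 0.771 and 1.304 FPKM in H24 (chromosome 1, 82794964 to 82989908, plus strand). All groups overlapped for ME1, and its log2 fold change in H24 against NC was 0.20, with an interval from -0.87 to 1.27 (adjusted p = 0.879).

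Neither elongase passed the test. ELOVL5, which lengthens polyunsaturated fatty acids, read 13.4, 14.98 and 16.8 FPKM in NC, 18.1, 10.9 and 11.7 FPKM in H8, and 23.1, 13.1 and 29.9 FPKM in H24 (chromosome 7, 46860499 to 46932950, minus strand). In FPKM H24 libraries 1 and 3 were above all others and library 2 was below all of NC. On the log2 CPM scale, relative to the NC mean, H24 library 2 (-0.167) was above NC library 1 (-0.189). ELOVL5 was at 0.52 ± 0.31 on the log2 scale in H24 against NC, with an interval from -0.22 to 1.27 (adjusted p = 0.519). ELOVL6, which turns palmitate into stearate, read 2.31, 1.12 and 2.26 FPKM in NC, 1.60, 1.98 and 1.59 FPKM in H8, and 2.97, 0.614 and 1.93 FPKM in H24 (chromosome 8, 112038686 to 112191299, plus strand). H24 held both the highest and the lowest library, 4.85 times apart. Its log2 fold change in H24 against NC was -0.07, with an interval from -1.39 to 1.24 (adjusted p = 0.967), which is too wide to bound a change of 2-fold.

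Read as a group, the 10 genes did not move together. In H24 against NC 7 had a log2 fold change below 0 and 3 above, and their median was -0.07 beside 0.01 over all genes tested. FADS1 was the 1 member whose H24 libraries all lay below NC and SCD the 1 whose libraries all lay above, where 7.8% and 12.8% of all genes tested did so. In H8 against NC 1 member, FADS1, was called lower and 0 higher, where 2.27% and 5.11% of 14336 genes were called. No member passed the adjusted threshold there, as 0.0279% of genes did. An unadjusted p under 0.05 was seen for 3 members (FADS1, SCD and FASN), and for 14.8% of all genes. DESeq2 passed FADS1 (adjusted p = 0.0231), as it did 4.4% of 14015 genes at a log2 fold change beyond 1. In FPKM FASN, FADS1 and ACSS2 lay wholly below NC and no member wholly above, against 15.9% and 6.91% of all genes. The median member value was -0.05 beside 0.01.

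In H24 against H8 FADS1 was called lower and SCD higher, where 3.05% and 7.22% of 14788 genes were called in those directions. None of the 10 passed the adjusted threshold by edgeR, as 0.0135% of genes did, nor by DESeq2, by which 4.54% of 14331 genes passed with a log2 fold change beyond 1. An unadjusted p under 0.05 was seen for 2 members and 13.7% of all genes. In FPKM FADS1 lay wholly below H8 and FASN wholly above, against 6.31% and 15.5% of all genes. The median was 0.06 beside 0.04 over all genes tested.

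**Figure D4:**
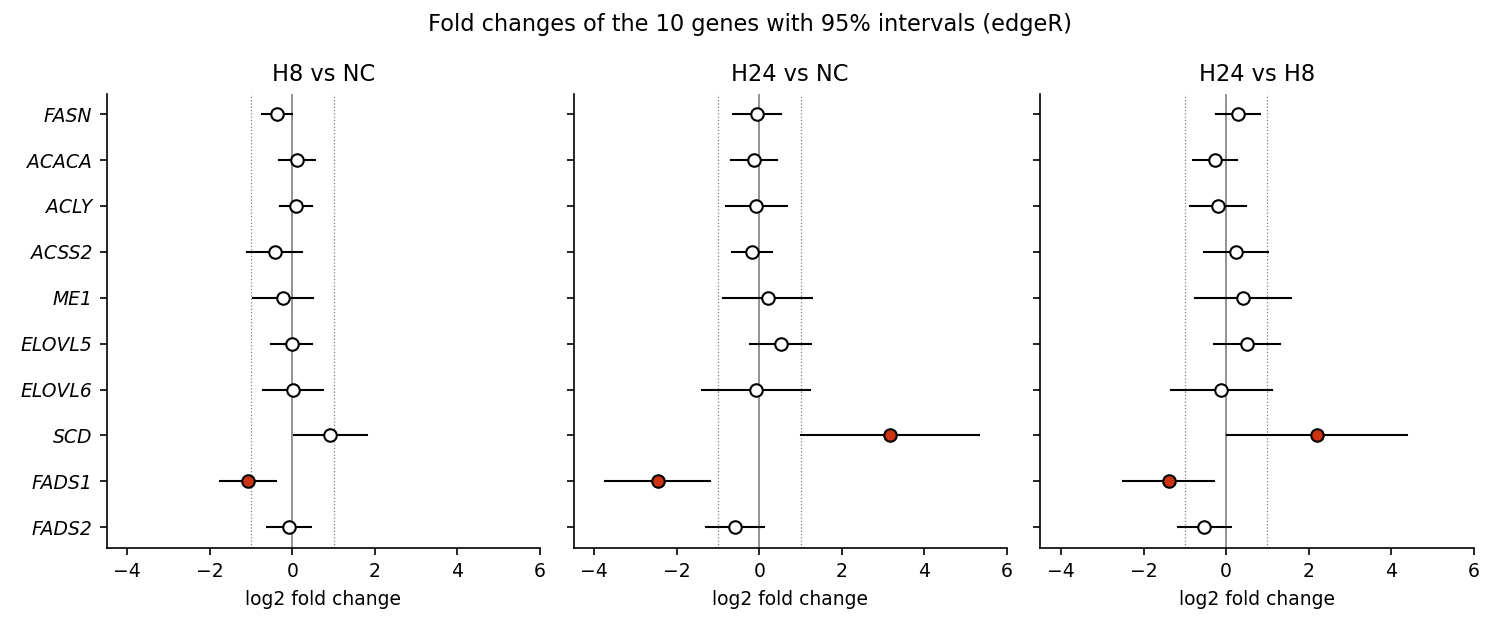
Log2 fold change of each gene (points) with its 95% interval (lines) from edgeR in the 3 comparisons, with filled points for called genes and dotted lines at 1 and -1. FADS1 is filled in all 3 panels and SCD in both panels with H24, and the intervals of FASN, ACACA and ACLY are short and cross 0 except for FASN in H8 against NC.

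On the length-corrected FPKM scale, the order of mean levels in NC was FASN, FADS2, ACSS2, FADS1, ACLY, ELOVL5, ACACA, SCD, ELOVL6 and ME1. Of neighbours in that order, only ACACA and SCD, and SCD and ELOVL6, had ranges that did not overlap. In H8 the order was FADS2, FASN, ACLY, SCD, ELOVL5, ACSS2, ACACA, FADS1, ELOVL6 and ME1, with FADS1 apart from both of its neighbours and ELOVL6 apart from ME1. In H24 it was SCD, FASN, ELOVL5, ACSS2, ACLY, FADS2, ACACA, FADS1, ELOVL6 and ME1, where only ACACA and FADS1 did not overlap.

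Over the 9 libraries, the log2 CPM values of the members were weakly related, as a description that includes the differences between groups. Of 45 pairs 26 had a Pearson r above 0, and the median r was 0.0935. SCD and ELOVL5 (r = 0.865) and FADS1 and FADS2 (r = 0.835) were the 2 pairs above 0.7, and SCD and FADS1 (r = -0.799) were the 1 pair below -0.7. The genes most like SCD among 10361 others were TNFSF13B (r = 0.99), STK4 (r = 0.989) and NCEH1 (r = 0.989). Those most like FADS1 were RHEB (r = 0.951), CDCP2 (r = 0.95) and EGFL6 (r = 0.945). Those most like the mean profile of the 10 members were CPSF2 (r = 0.941), C12orf4 (r = 0.934) and ATAD2B (r = 0.928).

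Regulators known to act on these genes were called in both directions in H24 against NC. Of 16 tested, 2 were called lower and 4 higher, where 1.52% and 9.95% of all genes were called. SREBF1, which encodes the SREBP-1 proteins, read 6.03, 5.97 and 4.68 FPKM in NC, 7.01, 5.20 and 8.08 FPKM in H8, and 8.12, 7.96 and 16.5 FPKM in H24. All H24 libraries were above NC, with a log2 fold change of 0.94 ± 0.34 (adjusted p = 0.295), just short of the fold for a call. SREBF2, whose product drives cholesterol synthesis, was called lower at -1.04 ± 0.22 (adjusted p = 0.132). That value sits near the fold required, and the call held in 12 of 16 alternatives (-1.14 to -0.905). INSIG1, the sterol-sensing retainer of SREBP in the endoplasmic reticulum, was higher at 2.07 ± 0.51 (adjusted p = 0.151), and at 1.40 without H24 library 3.

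NR1H3, the liver X receptor alpha, read 1.47, 2.82 and 1.31 FPKM in NC and 5.62, 4.33 and 37.7 FPKM in H24. PPARG, the fatty acid-binding nuclear receptor of adipocytes and macrophages, read 0.948, 1.21 and 1.198 FPKM in NC and 3.96, 1.73 and 24.0 FPKM in H24. Both were called higher, NR1H3 at a log2 fold change of 3.06 and PPARG at 3.12, and without H24 library 3 they were called at 1.37 and 1.31. Their H24 libraries stood in the same order as the macrophage marker sum of 302, 179 and 1960 FPKM, whose part in these levels was not tested. MID1IP1, an activator of acetyl-CoA carboxylase, was called higher at 1.43 but reached 0.77 without H24 library 3. PPARA, the receptor that drives fatty acid oxidation, was called lower at -1.43 ± 0.33 (adjusted p = 0.136), with 7.04, 7.23 and 7.21 FPKM in NC and 3.36, 2.94 and 1.83 FPKM in H24. The other 9 regulators, SCAP, INSIG2, MBTPS1, MBTPS2, NR1H2, RXRA, MLXIPL, MLX and THRSP, had log2 fold changes from -1.53 to 0.41 in H24 against NC and did not pass.

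Of 16 regulators 1 was called lower and 1 higher in H8 against NC, where 2.27% and 5.11% of all genes were called. THRSP, a lipogenic gene of fat and liver, was the lower one and had counts of 83, 302 and 580 in NC and 0, 14 and 4 in H8. ADIPOQ was low in the same H8 libraries, at 0.0789 to 0.106 FPKM, and the part of adipocyte content in the level of THRSP was not tested. INSIG1 was the higher one, and it rested on H8 library 1: the log2 fold change was 1.16 (adjusted p = 0.325) with it and 0.34, not called, without it. In H24 against H8 0 of 16 were called lower and 2 higher, where 3.05% and 7.22% of all genes were called. The 2 were NR1H3 at 3.32 (adjusted p = 0.341) and PPARG at 2.83 (adjusted p = 0.341). Without H24 library 3 NR1H3 was called at 1.68, and PPARG was at 1.05 and not called, as it was not without H8 library 2 (2.56) or 3 (2.77).

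**Figure D5:**
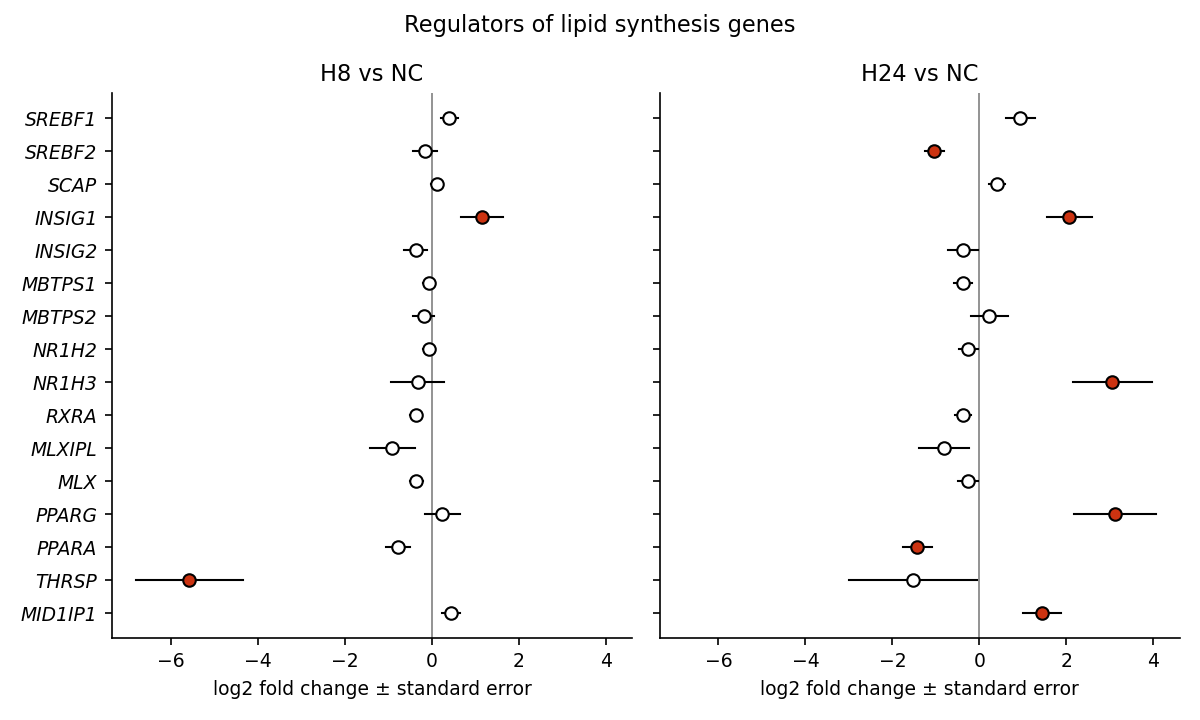
Log2 fold change (points) with its standard error (lines) of 16 regulators of lipid synthesis genes in H8 against NC and H24 against NC, with filled points for called genes. In H24 against NC, NR1H3, PPARG, INSIG1 and MID1IP1 are filled on the higher side and PPARA and SREBF2 on the lower side, while SREBF1 at 0.94 is open.

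Of 30 other tested genes of fatty acid synthesis, activation and elongation, 1 was called lower and 4 higher in H24 against NC, close to the 1.52% and 9.95% of all genes. PC, the pyruvate carboxylase that refills the citrate cycle, was the lower one at -1.60 (adjusted p = 0.281), and it was -0.96 without NC library 2 and -1.49 without H24 library 2, neither called. HACD4, a dehydratase of the elongation cycle, was higher at 4.90 (adjusted p = 0.136), from 0.238, 0.0748 and 0.197 FPKM in NC to 2.65, 0.648 and 12.2 FPKM in H24. ACSL5, which activates long-chain fatty acids, was higher at 1.14 (adjusted p = 0.186). Without H24 library 3 HACD4 was called at 3.23, ACSL5 was at 0.84, and 1 of the 30 was called higher. Without any 1 NC library 2 were called higher. In H8 against NC 2 of 30 were called lower, PC at -1.88 among them, and 1 higher, beside 2.27% and 5.11% of all genes. In H24 against H8 0 of 29 were called lower and 3 higher, beside 3.05% and 7.22% of all genes.

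Triglyceride assembly had 0 of 7 genes called by edgeR in H24 against NC, while 1 was called lower with DESeq2, with limma and without H24 library 1, and 1 higher without H24 library 2. A single gene of this list was called lower in H8 against NC, where 2.27% of all genes were. It was DGAT2, which makes triglyceride from diacylglycerol, at -4.52 (adjusted p = 0.0839). DGAT2 read 4.46, 19.4 and 17.4 FPKM in NC, 0.665, 0.613 and 0.34 FPKM in H8, and 9.15, 0.653 and 0.926 FPKM in H24. Its 5 lowest libraries were also the 5 lowest for ADIPOQ. Not all adipocyte markers went that way: CFD (186 FPKM) and CIDEC (8.15 FPKM) were highest in H24 library 3, which is among those 5. The part of adipocyte content in the level of DGAT2 was not tested. In H24 against H8 it was called higher at 2.49, which rested on H24 library 1 (0.36 without it).

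Of 20 genes of fatty acid uptake and oxidation, 0 were called lower and 2 higher in H24 against NC, a share near the 1.52% and 9.95% of all genes. SLC27A6, a fatty acid transport protein, was at 5.74 (adjusted p = 0.132) and LPL, the lipase that frees fatty acids from lipoproteins, at 3.40 (adjusted p = 0.222). Without H24 library 3 both were called, SLC27A6 at 4.49 and LPL at 1.65. SLC27A6 was the 1 called gene of this list in H8 against NC (3.67, and 2.72 without H8 library 1). LPL was the 1 called in H24 against H8 (3.09), but not without H24 library 3 (1.38) or H8 library 2 (2.78) or 3 (3.02). Of all genes 5.11% were called higher in H8 against NC and 7.22% in H24 against H8. The cholesterol synthesis and uptake list had 7 of 20 genes called lower and 0 higher in H24 against NC, beside 1.52% and 9.95% of all genes. Its median log2 fold change was -0.68, beside 0.01 over all genes tested. The difference between this list and the 10 members was not tested.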

How the data were processed

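RNA-seq was done on 9 aortic libraries, 3 in each of the groups NC, H8 and H24, grouped by their GEO titles. The authors aligned reads to Sscrofa11.1 with HISAT2 2.0 and deposited FPKM values from StringTie 1.3.0, which are corrected for gene length and library depth. Beside them the deposited table gives an estimated count per gene and library, a whole number with no normalization, and how it was derived is not given in the sources used here. The submitters' processing notes also list Bowtie 0.12.2 and mm8 with no role stated, while the chromosomes in the table are those of pig. Whether counting used strand is not given either. Of 21357 genes, 5119 had no name, and 907 of these took one from a reference table of gene IDs.

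Estimated counts were tested with edgeR 4.0.16 in R 4.3.3 (quasi-likelihood, two-sided, TMM normalization, trended dispersion) on the libraries of the groups compared and on every gene whose mean FPKM over them reached 0.1. Intervals are 95%. Adjusted p-values are Benjamini-Hochberg over all genes tested. Nothing pairs the pigs. The study's methods give separate pigs for NC and H24, and for H8 this rests on the labels. The fit was tested on simulated data for H24 against NC, with 200 of 14828 genes given a log2 fold change of 2 in size. The 200 were drawn from genes with a mean above 1 CPM, so recovery among lower genes was not covered. Each gene was simulated independently, so a shift shared by many genes of 1 library was not covered either. Of these 200, 184 were called and 76 also passed the adjusted threshold. Of the unchanged genes 3.39% were called. No pair of libraries was a duplicate. Alternatives used DESeq2 1.42.0, limma 3.58.1 on log2(FPKM + pseudocount) with pseudocounts of 0.1, 1 and 0.01, other scalings and filters, all 9 libraries in one fit, the replicate number as a block, and each library left out in turn. The R package data.table (version 1.17.8) read the values. The same alternatives were run on the other listed genes after the data were seen.

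The 10 members and all lists were chosen with earlier results of these data known. All members and regulators were to be named by symbol, and of each other list at most the 4 genes with the smallest p in H24 against NC. The genes named outside that rule, FADS3, ADIPOQ and called genes of the other comparisons, were chosen for their position or after their values were seen. Likeness was Pearson's r of log2 CPM, over named genes whose mean FPKM reached 1. MECR, OLAH, AGPAT2, MOGAT2, CD36, LSS, CLDN5, MYH1 and MYH2 were listed but not analysed here. Replicate numbers did not pair libraries: deviations of same-numbered libraries correlated at -0.0815 to 0.105. The single-gene results of some listed genes are not reported here.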

Additional observations from a re-analysis of the deposited data

How the results depend on the processing

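FADS1 was called lower in H24 against NC in 16 of 16 alternatives (log2 fold change -3.18 to -2.15, adjusted p 0.000521 to 0.465), and SCD higher in 16 of 16 (1.49 to 3.67, adjusted p 0.0027 to 0.541). FADS1 kept its call in 13 of 16 in H8 against NC (-1.36 to -0.847, adjusted p 0.0231 to 0.545) and in 15 of 16 in H24 against H8 (-2.15 to -1.11, adjusted p 0.0981 to 0.663), and SCD in 8 of 16 in H24 against H8 (0.552 to 2.69). With DESeq2 2 members passed the adjusted threshold in H24 against NC and 1 in H8 against NC, where it passed 7.05% and 4.4% of all genes. Members called higher in H24 against H8 numbered 0 with limma at each of the 3 pseudocounts. With the replicate block 0 members were called lower in H8 against NC and 0 higher in H24 against H8, and the replicate block changed no other count of members. Leaving out 1 library at a time, members called lower ranged from 0 to 1 in H8 against NC (0 without NC library 1 or 3) and from 0 to 1 in H24 against H8 (0 without H24 library 1). Members called higher ranged from 0 to 1 in H8 against NC (1 without H8 library 2) and from 0 to 1 in H24 against H8 (0 without H24 library 3 or any H8 library). The cause was not tested. Leave-one-out fits that left 1 group with 2 libraries have less power by construction.

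Of the members' values 432 kept direction and call, 12 lost the call, 1 gained it and 35 changed direction, all 35 of genes not called. With library size only, H8 against NC gave ACACA -0.027, ACLY -0.0629 and ELOVL6 -0.152, and H24 against H8 gave ACLY 0.0127 and ELOVL6 0.115. For H8 against NC limma gave ACACA, ACLY and ELOVL6 as -0.00265, -0.0359 and -0.0709 at a pseudocount of 0.1, -0.00321, -0.0346 and -0.0625 at 1, and -0.00259, -0.036 and -0.0707 at 0.01. Leaving out libraries in H24 against NC, FASN ranged from -0.212 to 0.0718, ACACA from -0.242 to 0.0482, ACLY from -0.429 to 0.102, ELOVL6 from -0.566 to 0.333 and ME1 from -0.31 to 0.506. Across H8 and NC libraries ELOVL5 ranged from -0.267 to 0.106, ELOVL6 from -0.238 to 0.172 and FADS2 from -0.238 to 0.174. In H24 against H8 ELOVL6 ranged from -0.634 to 0.271, ACSS2 from -0.0346 to 0.436 and ME1 from -0.121 to 0.691. Scaling by library size only moved the median over all genes to -0.133 in H8 against NC and 0.238 in H24 against H8, and the members' medians to -0.194 and 0.258. Of the values of other called genes 583 kept their call and 99 lost it, and none changed direction. Same-numbered libraries correlated best with each other for 2 of 6, 3 of 6 and 2 of 6 libraries in H24 against NC, H8 against NC and H24 against H8.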
